A study of Homo sapiens with 6 samples.

Results

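The miR-29 guide strands are the 3 mature miRNAs hsa-miR-29a-3p, hsa-miR-29b-3p and hsa-miR-29c-3p, taken by name from a table of 832 miRNAs measured in extracellular vesicles (EVs) of breast cancer cells. All 3 were present and all 3 passed the filter on low counts, which kept 517 miRNAs detected in 3 or more of the 6 libraries (count above 0). The EVs came from MDA-MB-231, a human triple-negative breast cancer line with mesenchymal features, grown in EV-free medium. The line labelled WT gave the group 231 EV (n = 3). The same line with knockdown of ACO1 (aconitase 1, a cytosolic iron-sulphur enzyme that binds iron-responsive RNA elements when it has lost its cluster) gave the group 231/ACO1 KD EV (n = 3), called the knockdown EVs beside the control EVs of 231 EV. The study's question was about miR-33a, namely which RNA-binding protein takes it into EVs, with ACO1 as the candidate, and the libraries read the other miRNAs beside it. How ACO1 was knocked down and whether the replicates were separate cultures are not given in the sources used here, so p-values measure the spread between these libraries. ACO1 mRNA is not read by small RNA libraries, and the knockdown was not examined in them.

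miRNAs of the miR-29 family are known as brakes on the extracellular matrix. Their shared 5′ seed pairs with the 3′ untranslated regions of mRNAs for fibrillar collagens, basement membrane collagen and fibrillin, and their loss goes with fibrosis in many tissues. They are cut from hairpins in pairs. One strand, here the 3p arm, is kept as the guide in Argonaute, and the other, the passenger arm, is mostly discarded.

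The mature sequences below, from RefSeq on GRCh38.p14, are shown because they decide both what the family targets and how well its members can be told apart by sequencing. Capitals mark the seed, bases 2 to 8 from the 5′ end.
hsa-miR-29a-3p: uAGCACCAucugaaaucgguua
hsa-miR-29b-3p: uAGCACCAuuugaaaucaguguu
hsa-miR-29c-3p: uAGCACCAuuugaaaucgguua

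The seed AGCACCA was the same in all 3 and in no other of the 2370 mature miRNAs of the RefSeq table. hsa-miR-29a-3p and hsa-miR-29c-3p, both 22 nt long, differ by the single substitution C10U (the base of hsa-miR-29a-3p first, positions counted from the 5′ end). Against hsa-miR-29a-3p, hsa-miR-29b-3p has C10U, G18A, U21G and A22U and is 1 base longer, at 23 nt. Reads that match only the other 21 positions cannot separate hsa-miR-29a-3p from hsa-miR-29c-3p, and the deposited counts do not show how such reads were assigned.

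hsa-miR-29a-3p is encoded at chr7:130876748-130876769 on the minus strand, in the hairpin MIR29A, which lies inside the long non-coding RNA gene LINC-PINT but in none of its annotated exons. MIR29B1, 648 bases away on the same strand, lies in exon 4 of the transcript LINC-PINT-202. The long non-coding RNA genes AC016831.6, on the same strand, and LINC00513, on the opposite strand, also overlap MIR29A and MIR29B1. hsa-miR-29c-3p is encoded at chr1:207801865-207801886 on the minus strand, in MIR29C. MIR29C and MIR29B2, 503 bases apart, both lie in exon 5 of the host RNA MIR29B2CHG-203. hsa-miR-29b-3p is made from both loci (chr7:130877467-130877489 and chr1:207802450-207802472, both minus strand) with the same sequence, so its count sums over them. The gene positions inside host RNAs are from GENCODE release 29 on GRCh38.

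A stretch with full pairing to bases 2 to 8 plus the A opposite base 1 reads UGGUGCUA in RNA. It was looked for on the sense strand of 3′ untranslated regions of the principal transcripts, and 2.96% of 13626 protein-coding genes (404) held it. The matrix genes looked up were 8 (COL1A1, COL1A2, COL3A1, COL4A1, COL5A1, ELN, FBN1 and SPARC), of which 6 had a principal transcript of the kind searched and 5 held the letters. The first stretch in each is shown with the 14 bases before it, in DNA letters, with the matching letters in capitals and their GRCh38 positions. These mRNAs were not measured in the EV libraries.
COL1A1, chr17:50184572-50184579, minus strand: ggggagggaatcacTGGTGCTA
COL1A2, chr7:94430913-94430920, plus strand: ttgaagaatgttgaTGGTGCTA
COL3A1, chr2:189012016-189012023, plus strand: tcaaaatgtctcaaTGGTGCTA
COL4A1, chr13:110150326-110150333, minus strand: ctaatgtcacaacaTGGTGCTA
FBN1, chr15:48410567-48410574, minus strand: ttatggtacctattTGGTGCTA

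COL1A1 and COL1A2 encode the chains of collagen I, COL3A1 that of collagen III, COL4A1 a chain of basement membrane collagen IV, and FBN1 the microfibril protein fibrillin-1. COL3A1 held the letters at 2 places and the other 4 genes at 1. No SPARC match was found in this window. Collagens and fibrillin are the kinds of target named above, so matches in them were to be looked for and are no test beside the share over all genes. The regions were not matched for length. Those of the genes with a match ran from 839 bases (COL1A2) to 2684 (FBN1), beside a median of 875.5 over the genes searched. A match of letters is a description and does not show regulation.

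The 6 libraries held 224948 to 230562 counts in 231 EV and 67873 to 175924 in the knockdown EVs, where replicate 2 was the shallowest. Chi-square tests over miRNAs found replicates farther apart than counting noise, so each library was kept as 1 sample. Chi-square per degree of freedom was 3.64 or more. It was highest for 231/ACO1 KD EV replicate 3 against replicates 1 (22.6) and 2 (17.3) of its group. The libraries were also unlike in their leading miRNA, hsa-miR-21-5p. It took 30.0% ± 1.38 (SD, n = 3) of the counts in 231 EV and 14.1% ± 3.75 (SD, n = 3) in the knockdown EVs. In knockdown replicates 1, 2 and 3 this share was 12.2%, 11.7% and 18.4%. The 5 miRNAs listed as abundant in this line summed to 406583 to 427629 TPM in 231 EV and 248626 to 312836 TPM after knockdown. Within this list the largest fall in mean TPM was that of hsa-miR-21-5p, from 299864 to 141141. The means of hsa-miR-100-5p, hsa-miR-221-3p and hsa-miR-222-3p also fell, and that of hsa-miR-125b-5p rose from 67609 to 92867. The 6 epithelial miRNAs, which mesenchymal-like lines largely lack, summed to 858 to 985 TPM in 231 EV and 619 to 992 TPM after knockdown. After TMM scaling, the epithelial sums were 1021 to 1097 against 517 to 908 CPM and did not overlap. The share of all miRNAs tested without overlap on that scale was not counted, so this is a description. CPM has the unit of TPM, taken over a total scaled by edgeR's TMM method. hsa-miR-205-5p, with the highest mean TPM of the 6 in 231 EV (507), was the 1 called (log2 fold change -0.93, edgeR adjusted p = 0.00749). Of all miRNAs tested, 6% were called lower. The other epithelial miRNAs had log2 fold changes from -0.61 (hsa-miR-200b-3p) to 0.51 (hsa-miR-200c-3p). Each of these 11 miRNAs was detected in both groups. TPM is here the count as a share of its library total, set to the same sum in each library, with no term for length.

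As a family, the 3 guide strands made up 5.98% ± 0.619 (SD, n = 3) of all counts in 231 EV and 7.54% ± 0.347 (SD, n = 3) in the knockdown EVs. The shares of 231 EV replicates 1, 2 and 3 were 5.79%, 6.67% and 5.48%, and those of the knockdown EVs were 7.89%, 7.54% and 7.20%. The groups did not overlap on this scale, and the lowest knockdown share (95% Wilson interval 7.07% to 7.33%) was above the highest control share (6.57% to 6.78%). These intervals cover counting error only. When the reads of hsa-miR-21-5p were left out of the totals, the family took 8.56% ± 1.00 in 231 EV and 8.78% ± 0.222 in the knockdown EVs (SD, n = 3 each), and the groups overlapped. The family's higher share among all counts thus stood beside the lower share of hsa-miR-21-5p, and these 2 quantities are parts of 1 total.

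hsa-miR-29a-3p, the most abundant member, was the fifth most abundant miRNA in each of the 6 libraries. Its counts were 10925, 12916 and 10470 in replicates 1, 2 and 3 of 231 EV, and 11741, 4290 and 9559 in those of the knockdown EVs. As deposited TPM these were 48567, 56020 and 46532 against 66739, 63206 and 60761, with means of 50373 ± 4995 and 63569 ± 3006 (SD, n = 3 each). Every knockdown library was above every control library in TPM, and 231 EV replicate 2 was the highest of its group. After TMM scaling, in which edgeR sets the libraries so that most miRNAs keep their level, the values were 53083, 62404 and 55383 CPM in 231 EV and 60216, 52778 and 55653 CPM in the knockdown EVs, and the groups overlapped.

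hsa-miR-29b-3p, the member that both loci encode, ranked between 20 and 26 by library. Its counts were 1335, 1593 and 1157 in 231 EV and 1342, 551 and 1121 in the knockdown EVs. Its TPM was 5935, 6909 and 5142 against 7628, 8118 and 7126, with means of 5995 ± 885 and 7624 ± 496 (SD, n = 3 each). These groups did not overlap in TPM either. In TMM-scaled CPM the values were 6487, 7697 and 6120 against 6883, 6779 and 6526, and the 3 knockdown libraries lay within the range of the control libraries.

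hsa-miR-29c-3p, from the chromosome 1 locus, was the least abundant guide and ranked between 33 and 39. Its counts were 773, 881 and 709 in 231 EV and 799, 278 and 643 in the knockdown EVs. Its TPM was 3436, 3821 and 3151 against 4542, 4096 and 4087, with means of 3469 ± 336 and 4242 ± 260 (SD, n = 3 each), and the groups did not overlap. In TMM-scaled CPM they did, with 3756, 4257 and 3750 against 4098, 3420 and 3744. 231/ACO1 KD EV replicate 2 was the lowest of the 6 libraries on this scale and the shallowest in depth.

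**Figure D1:**
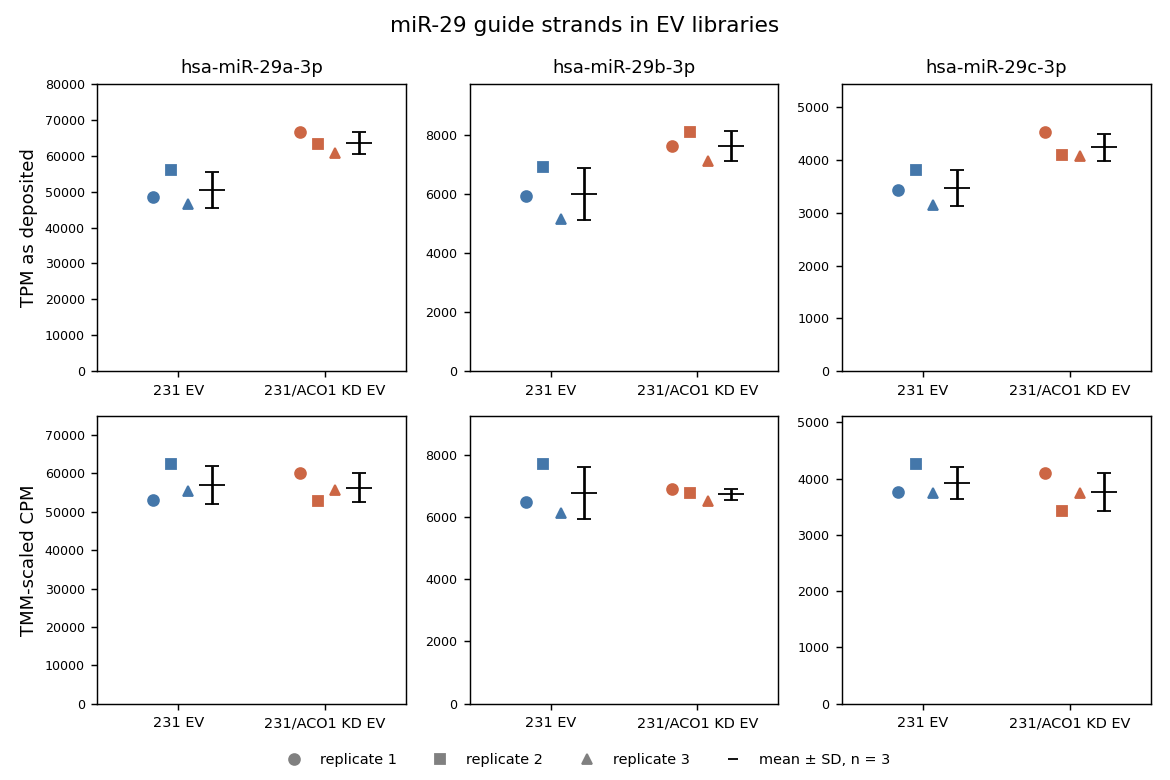
Level of each guide strand (columns) in the 3 libraries of each EV group, as deposited TPM (top row) and as TMM-scaled CPM (bottom row). Symbols mark replicates 1 to 3, the bar is the mean and the whiskers the SD (n = 3), and all axes start at 0. The groups are apart in the top row and overlap in the bottom row for all 3 miRNAs.

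In TPM, the spread between replicates of each guide strand was larger than counting alone gives. For hsa-miR-29a-3p the coefficient of variation of TPM was 9.92% in 231 EV and 4.73% in the knockdown EVs, where the mean counts alone would give 0.935% and 1.08%. For hsa-miR-29b-3p it was 14.8% and 6.51%, against 2.71% and 3.15% from counting. For hsa-miR-29c-3p it was 9.69% and 6.13%, against 3.56% and 4.18%. On the TMM scale the 6 coefficients of variation ran from 2.72% to 12.2%, and that of hsa-miR-29b-3p in the knockdown EVs, the lowest, was below its counting value.

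Fitted across all 517 miRNAs with TMM scaling, no member passed an adjusted p of 0.05. The log2 fold change of 231/ACO1 KD EV against 231 EV was -0.02 for hsa-miR-29a-3p (standard error 0.12, 95% interval -0.26 to 0.22, Benjamini-Hochberg adjusted p = 0.956 by the quasi-likelihood test of edgeR). It was -0.0084 for hsa-miR-29b-3p (standard error 0.15, -0.30 to 0.28, edgeR adjusted p = 0.984) and -0.06 for hsa-miR-29c-3p (standard error 0.16, -0.37 to 0.25, edgeR adjusted p = 0.901). None had an unadjusted p under 0.05 in this fit, and DESeq2 called none of the 3 at an adjusted p of 0.05. Of the miRNAs tested, 6% were called lower and 2.51% higher. The intervals leave room for changes of the size of their bounds and do not show that the levels were equal.

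The direction of these values depended on the scaling. With library totals in place of TMM, the log2 fold changes were 0.34 for hsa-miR-29a-3p (standard error 0.12, Benjamini-Hochberg adjusted p = 0.0372 by the quasi-likelihood test of edgeR), 0.35 for hsa-miR-29b-3p (adjusted p = 0.0974) and 0.29 for hsa-miR-29c-3p (adjusted p = 0.236). In that fit 11.2% of the miRNAs tested were called higher and 2.51% lower, and the median log2 fold change of all 517 was 0.32, against -0.03 with TMM. Relative to that median, the members stood at 0.02, 0.03 and -0.03 with library totals and at 0.01, 0.02 and -0.03 with TMM, in the order a, b, c. With totals that leave out hsa-miR-21-5p, the log2 fold changes were 0.04, 0.05 and -0.0041 in the same order, and the median of all was 0.03.

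**Figure D2:**
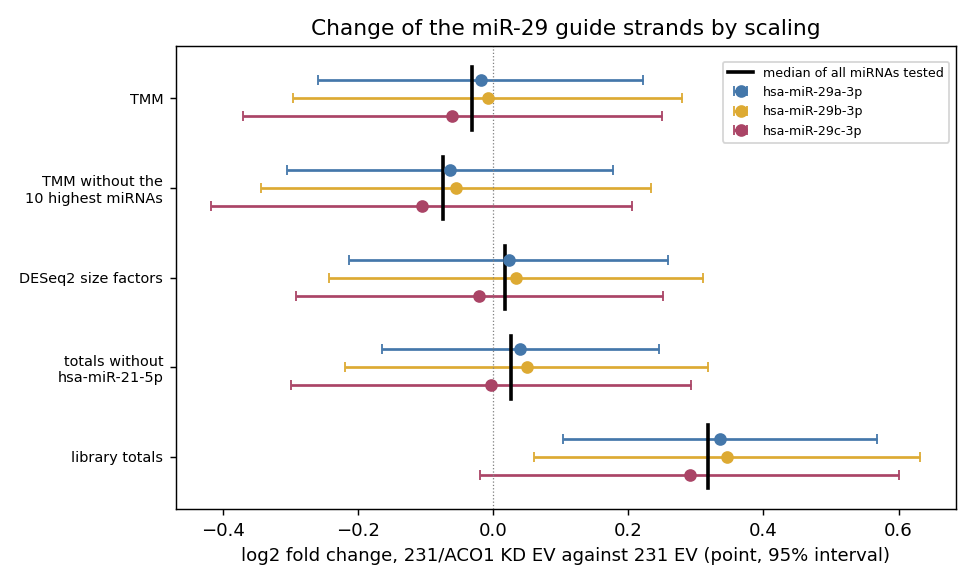
log2 fold change of each guide strand (points, with 95% intervals) under 5 ways of scaling the libraries, with the median of the 517 miRNAs tested as a black bar. The points moved from about 0 to 0.29 to 0.35 with library totals, and the black bar moved with them.

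The lack of overlap in TPM was common. The TPM of every knockdown library was above that of every control library in all 3 guide strands, and in 22.6% of all miRNAs tested. Among the 79 miRNAs with a mean TPM of at least 1000, a bound chosen after the values were seen, 40 (50.6%) showed the same. An exact two-sided permutation test of log2(TPM + 1) gave p = 0.1 for each member, the smallest p that 3 libraries against 3 allow. On the TMM scale the same exact permutation test gave p = 0.8 for hsa-miR-29a-3p, 1 for hsa-miR-29b-3p and 0.4 for hsa-miR-29c-3p.

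The order within the family was the same in all 6 libraries, and the members' levels did not overlap. hsa-miR-29a-3p took 84.2% ± 0.579 of the family's counts in 231 EV and 84.3% ± 0.408 in the knockdown EVs (SD, n = 3 each). hsa-miR-29b-3p took 9.99% ± 0.533 and 10.1% ± 0.578, and hsa-miR-29c-3p took 5.80% ± 0.113 and 5.62% ± 0.170. A ratio of 2 members within a library does not depend on how libraries are scaled. hsa-miR-29a-3p had 7.78 to 9.05 times the counts of hsa-miR-29b-3p and 14.1 to 15.4 times those of hsa-miR-29c-3p over the 6 libraries.

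The change of hsa-miR-29b-3p against hsa-miR-29a-3p between groups was 0.02 on the log2 scale (standard error 0.07, exact permutation p = 1, two-sided). Differences between single knockdown and control libraries ran from -0.11 to 0.22. For hsa-miR-29c-3p against hsa-miR-29a-3p it was -0.05 (standard error 0.03, exact permutation p = 0.2, adjusted over the 3 ratios p = 0.6), with single differences from -0.13 to 0.0070. For hsa-miR-29b-3p against hsa-miR-29c-3p it was 0.06 (standard error 0.08, exact permutation p = 0.6, adjusted p = 0.9), with single differences from -0.11 to 0.28. No exact p under 0.1 is possible with 3 against 3. For each of the 3 ratios the single differences lay on both sides of 0.

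**Figure D3:**
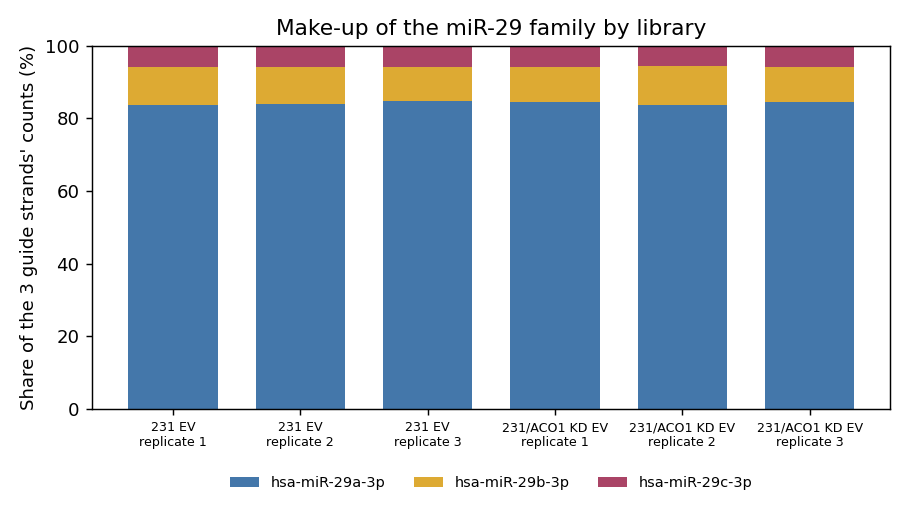
Share of each guide strand in the summed counts of the 3, by library, in percent. hsa-miR-29a-3p takes 83.8% to 84.9% in each of the 6 libraries, and the 3 segments have nearly the same height in both groups.

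The passenger arms of the same hairpins were rare. They are shown for comparison with the guides, again with bases 2 to 8 in capitals, and share no seed with them.
hsa-miR-29a-5p: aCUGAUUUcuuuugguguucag
hsa-miR-29b-1-5p: gCUGGUUUcauauggugguuuaga
hsa-miR-29b-2-5p: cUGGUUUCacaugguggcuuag
hsa-miR-29c-5p: uGACCGAUuucuccugguguuc

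hsa-miR-29a-5p, the partner of the most abundant guide, had 19, 27 and 38 counts in 231 EV, and the knockdown libraries had 11, 7 and 17. Its log2 fold change was -0.83 (standard error 0.38, unadjusted p = 0.0294, Benjamini-Hochberg adjusted p = 0.183 by the quasi-likelihood test of edgeR), so it did not pass the threshold, and the groups overlapped in TPM and in CPM. It made up 0.244% of the reads of both MIR29A arms in 231 EV (84 of the summed counts, 95% Wilson interval 0.197% to 0.302%) and 0.137% in the knockdown EVs (35 counts, 0.0982% to 0.190%). The single libraries ranged from 0.174% to 0.362% and from 0.0936% to 0.178%, so that the groups overlapped slightly. This difference in arm share was not tested.

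hsa-miR-29c-5p had counts of 22, 12 and 12 against 18, 7 and 18, and its log2 fold change was 0.32 (standard error 0.41, edgeR adjusted p = 0.782), although its TPM was higher in every knockdown library than in any control library. Its share of the MIR29C arms was 1.91% in 231 EV (95% Wilson interval 1.43% to 2.54%) and 2.44% in the knockdown EVs (1.82% to 3.27%). The single libraries ranged from 1.34% to 2.77% and from 2.20% to 2.72%, so the groups overlapped. As for hsa-miR-29a-5p, the intervals are of summed counts and leave out the spread between libraries. The hsa-miR-29b passenger arms together stood between those of the other two guides, at 0.898% and 1.15%. The 5p arms of hsa-miR-29b carry differences that separate its loci. hsa-miR-29b-1-5p, from chromosome 7, had counts of 13, 4 and 8 against 15, 3 and 9, and hsa-miR-29b-2-5p, from chromosome 1, had 5, 1 and 6 against 4, 1 and 3. Passenger reads of both loci were therefore present in all 6 libraries, and the chromosome 7 arm had the higher count in each. Of the 4 passenger arms, 0 passed an adjusted p of 0.05 with edgeR or with DESeq2, and 1 had an unadjusted p under 0.05 with edgeR. Of all 517 miRNAs tested with edgeR, 44 passed the former threshold and 97 (18.8%) the latter.

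Short motifs linked to miRNA sorting were read in the mature sequences. CAUUG, the letters of miR-33a marked as the binding sequence in the study's docking model with ACO1, was in none of the 7 miR-29 arms. It was in 1.73% of the 2370 mature miRNAs, or 4.14% of the 435 tested miRNAs with a sequence in the table. The study's pulldown examined the longer CAUUGC, which the miR-29 arms therefore also lack and whose share was not counted. GGAG, a motif known from EV-enriched miRNAs, was in none of the 7 and in 15.7% of the mature miRNAs (7.36% of those tested). AGUGUU, known as the nuclear import element of miR-29b, began at base 18 of hsa-miR-29b-3p, was in no other arm of the family and was in 0.549% of the mature miRNAs (0.690% of those tested). Only the strand of the miRNA was read. The absence of letters says nothing of whether a protein binds.

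Other abundant miRNAs give a scale for the family. Next above hsa-miR-29a-3p in mean TPM stood hsa-miR-16-5p, hsa-miR-125b-5p and hsa-let-7a-5p, with log2 fold changes with TMM of -0.04, 0.10 and 0.08 (standard error 0.12 each), none past an adjusted p of 0.05. Next below stood hsa-let-7f-5p (0.21), hsa-miR-100-5p and hsa-let-7i-5p (0.06). Of these 6 neighbours hsa-miR-100-5p alone was called, at -0.89 on the log2 scale (standard error 0.13, edgeR adjusted p = 3.37e-10), at 32701 ± 2823 TPM in 231 EV and 22514 ± 6404 TPM in the knockdown EVs (SD, n = 3 each). At this abundance the test with TMM thus called a change of that size. In that fit the upper and lower bounds for hsa-miR-29a-3p stayed within 0.26 of 0. With library totals they were 0.10 and 0.57.

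**Figure D4:**
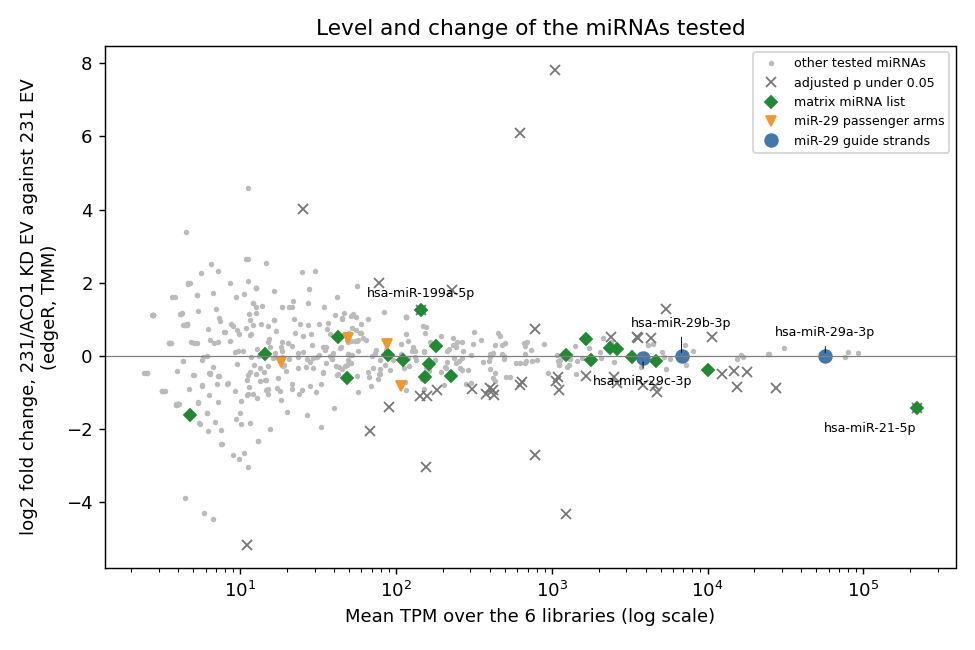
Mean TPM over the 6 libraries (log scale) against the log2 fold change of 231/ACO1 KD EV over 231 EV (edgeR, TMM) for the 517 miRNAs tested. The 3 guide strands lie on the right near 0, between -0.06 and -0.0084, and the labelled diamonds of the matrix list, hsa-miR-21-5p at -1.44 and hsa-miR-199a-5p at 1.25, passed an adjusted p of 0.05 (edgeR). Crosses mark the other miRNAs that passed it.

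The profiles most like those of the members were sought among miRNAs with a mean TPM of at least 100, by the root mean square difference of log2 TMM-scaled CPM over the 6 libraries, each miRNA centred on its own mean. For hsa-miR-29a-3p the difference was 0.04 to hsa-miR-29c-3p and 0.07 to hsa-miR-29b-3p, and 0.07, 0.09 and 0.11 to the nearest miRNAs outside the family, hsa-miR-192-5p, hsa-miR-30e-5p and hsa-miR-339-5p. For hsa-miR-29c-3p the nearest outside were hsa-miR-192-5p (0.05), hsa-miR-30e-5p (0.07) and hsa-miR-148b-3p (0.09), and 4 miRNAs from outside lay nearer to it than hsa-miR-29b-3p did. For hsa-miR-29b-3p they were hsa-miR-27a-3p (0.09), hsa-miR-142-3p (0.10) and hsa-miR-339-3p (0.11). hsa-miR-29a-3p and hsa-miR-29c-3p, which differ by 1 base and come from different chromosomes, were thus each other's nearest profile. All these points share 6 libraries and their scaling, and the differences are a description.

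A list of 20 other miRNAs known from work on fibrosis, TGF-β or the extracellular matrix was set beside the family, and all 20 were tested. With TMM, 1 of the 20 was called lower and 1 higher, beside 6% and 2.51% of all miRNAs tested, and their median log2 fold change was -0.07, against -0.03 over all. The miRNA called lower was hsa-miR-21-5p, which is known to promote fibrosis and tumour growth. It had 64106, 71997 and 68029 counts against 21405, 7965 and 29010 (log2 fold change -1.44, standard error 0.12, Benjamini-Hochberg adjusted p = 7.14e-31 by the quasi-likelihood test of edgeR).

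The miRNA called higher was hsa-miR-199a-5p, known from activated fibroblasts. It had 18, 18 and 11 counts in 231 EV, against 42, 21 and 18 after knockdown, or 69.0 ± 17.4 against 221 ± 98.7 TPM (SD, n = 3 each), with no overlap in TPM. Its log2 fold change was 1.25 (standard error 0.35, edgeR adjusted p = 0.00981). The adjusted p rose to 0.111 without control replicate 3, to 0.101 without knockdown replicate 1 and to 0.0838 without knockdown replicate 2 (same edgeR test). With library totals 1 of the 20 was called lower and 4 higher, beside 2.51% and 11.2% of all miRNAs tested, the latter hsa-miR-199a-5p, hsa-miR-199a-3p, hsa-miR-30c-5p and hsa-miR-143-3p.

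Markers of other sources were present in the same libraries. The 4 leukocyte and platelet miRNAs (hsa-miR-223-3p, hsa-miR-142-3p, hsa-miR-142-5p and hsa-miR-150-5p) summed to 8200 to 9660 TPM in the control EVs and 13431 to 15171 TPM in the knockdown EVs, and to 9760 to 10558 against 12302 to 13688 CPM after TMM scaling, so the groups did not overlap on either scale. The 3 red cell miRNAs summed to less in the knockdown EVs, with 2009 to 2178 TPM against 1256 to 1634 TPM. Of these, hsa-miR-451a (log2 fold change -0.94, edgeR adjusted p = 0.000136) and hsa-miR-486-5p (-1.08, edgeR adjusted p = 0.000928) fell with TMM, and hsa-miR-144-3p had -0.33 (edgeR adjusted p = 0.654). The liver miRNA hsa-miR-122-5p spanned 1094 to 1324 TPM in the control EVs and 985 to 1887 TPM in the knockdown EVs. All 8 of these markers were detected in both groups. Within the leukocyte and platelet list, hsa-miR-223-3p (log2 fold change 0.51, edgeR adjusted p = 0.0226) and hsa-miR-150-5p (0.72, edgeR adjusted p = 0.0215) rose with TMM. The other members, hsa-miR-142-3p (0.10) and hsa-miR-142-5p (0.38), did not pass the threshold. Over all miRNAs tested with TMM, 6% were called lower and 2.51% higher. In TPM, 22.6% of the single miRNAs tested were higher in every knockdown library than in any control library. The matching share in TMM-scaled CPM was not counted. Guide strands of miR-29 are also made in blood cells and other tissues, and the part of such sources in the family's level was not tested.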

How the data were processed

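Small RNA libraries of EVs pelleted by ultracentrifugation were sequenced by the study (3 of 231 EV, 3 of 231/ACO1 KD EV, grouped by sample title). The authors trimmed the reads, collapsed identical sequences, removed other RNA classes by Rfam and matched the rest to miRBase. The submitters' processing notes also list hg38, Bowtie2 and StringTie. The authors deposited raw read counts and TPM, and each TPM equals the count over its library total, set to a common sum, to within 4.99e-05. No molecular identifiers are reported, so a count is a read, and depth was 67873 to 230562 counts a library.

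Counts were tested with edgeR 4.0.16 in R 4.3.3 (TMM, quasi-likelihood test, Benjamini-Hochberg over 517 miRNAs), which estimated a biological coefficient of variation of 20.8% and shared 1 quasi-dispersion over all miRNAs. Standard errors come from the fold change and F. Ratios and single levels were compared by exact permutation tests. Log CPM had a prior count of 2. Alternatives were other scalings, filters of none or a mean TPM of at least 10, DESeq2 1.42.0, limma 3.58.1 on log2(TPM + 1) and log2(TPM + 10), edgeR's robust option, a replicate block and each library left out in turn. The tests were tested on simulated data.

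The members and all lists were chosen with earlier results of these data known, and the 8 matrix genes of the letter search after the files were read. Named miRNAs are the guides, the passenger arms, list members past an adjusted p of 0.05, 3 neighbours above and below in mean TPM and the 3 nearest profiles per guide. RefSeq held 715 of the 782 miRBase names in the table.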

Additional observations from a re-analysis of the deposited data

How the results depend on the processing

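Log2 fold changes of the guides are given in the order a, b, c. Over 16 alternatives each, 8, 8 and 11 stayed below 0 as with TMM, and 1, 0 and 0 passed an adjusted p of 0.05 (adjusted p from 0.0372, 0.0739 and 0.203 upward, edgeR, limma or DESeq2). The sign turned with library totals (0.34, 0.35, 0.29) and with limma at pseudocounts of 1 (0.34, 0.36, 0.29) and 10 (0.34, 0.35, 0.29), which carry no correction for the shares of other miRNAs. It also turned for a and b with totals that leave out hsa-miR-21-5p (0.0397, 0.0492), DESeq2 (0.0226, 0.0330) and a mean TPM of at least 10 (0.0037, 0.0148). With 1 library left out the values ran from -0.0567 to 0.0561, from -0.0807 to 0.0982 and from -0.112 to 0.0060. All members stayed within -0.11 to 0.13 of the median of all miRNAs in the same fit. The passenger arm hsa-miR-29b-2-5p turned to 0.15 with library totals.

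The family's share was 26.1% higher in 231/ACO1 KD EV as deposited, 2.67% higher without hsa-miR-21-5p in the total and -1.40% after TMM scaling, and 21.0% to 33.8% higher with 1 library left out. The ratio of b to a changed by -0.0344 to 0.0505, that of c to a by -0.0603 to -0.0258 and that of b to c by -0.0082 to 0.11 with 1 library left out.

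The calls over all miRNAs numbered 44 (31 lower, 13 higher), 71 with library totals (13 lower, 58 higher), 75 and 76 with limma at pseudocounts of 1 and 10, and 19 to 65 with 1 library left out (21, 29 and 19 without 231 EV replicates 1, 2 and 3, 65 without 231/ACO1 KD EV replicate 3). Totals without hsa-miR-21-5p gave 27 lower and 23 higher. Of the 71, 26 were among the 44. The matrix list had 2 calls, 5 with library totals, and 1 to 4 with 1 library left out (1 without 231 EV replicate 3, 231/ACO1 KD EV replicate 1 or 2, 4 without 231/ACO1 KD EV replicate 3). The cause of these changes was not tested.

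Libraries that share a replicate number had a Pearson's r of their deviations of 0.05, 0.07 and 0.0050 over miRNAs, under the bound of 0.1. Libraries with unlike numbers had -0.09 to 0.04. Each miRNA entered once whatever its count, and counting noise lowers such an r. These values therefore cannot decide whether the replicates were paired. With a replicate block in edgeR the guides were at -0.0173, -0.00042 and -0.0603 with 44 calls in all.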
